A study of Mus musculus with 4 samples.

Results

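Pvalb interneurons of GCLC-KO mice were taken from a single-nucleus RNA sequencing data set of cerebral cortex. GABAergic nuclei were chosen by their own counts of unique molecular identifiers (UMIs). A nucleus was a member when it held at least 2 UMIs of Gad1 and Gad2 together, 0 of Slc17a7, at least 1 of Lhx6, at least 1 of Pvalb, fewer than 3 of Sst and 0 of Vip. Nuclei with over 7000 genes detected or over 1% of UMIs from mitochondrial genes were left out first. The rule found 201 nuclei among the 30515 that passed these limits, of 30784 deposited.

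All mice carried a floxed Gclc allele (C57BL/6NTac-Gclc tm1a(EUCOMM)Wtsi/WtsiCnbc) and CaMKII-Cre, a transgene that acts in excitatory neurons of the forebrain. Gclc encodes the catalytic subunit of glutamate-cysteine ligase, the first enzyme of glutathione synthesis. Nuclei came from 2 mice aged 3 months, whose libraries are called 3M-1 and 3M-2, and from 2 mice aged 6 months, called 6M-1 and 6M-2, and from pieces of cortex rich in rod-shaped microglia. Where 4 values follow each other, those of 3M-1 and 3M-2 come first and those of 6M-1 and 6M-2 last. Libraries from mice without the deletion were not analysed here, so every comparison is between ages or between cell classes of GCLC-KO mice.

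Pvalb interneurons are GABAergic cells born in the medial ganglionic eminence, the region of the embryonic forebrain where Lhx6, Sox6 and Satb1 direct interneuron fate. Most are basket or chandelier cells that fire fast trains of spikes and inhibit the soma or the start of the axon of their targets. Kv3 potassium channels, fast transmitter release, a high mitochondrial load and a sheath of matrix known as the perineuronal net are their usual hallmarks.

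The members numbered 55, 42, 60 and 44, and their summed depth was 760633, 437912, 755081 and 504773 UMIs. A member held a median of 12350, 9516.5, 11573 and 10672 UMIs in these libraries. No barcode of a member was shared between libraries. Scrublet called 2, 2, 6 and 5 of the members doublets, and these were kept unless stated. Of the members, 4, 2, 10 and 8 held at least 5 UMIs of the oligodendrocyte or of the microglia marker list. The whole libraries held 64857084, 64299223, 71255054 and 63429297 UMIs as deposited.

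The genes of the rule describe how the members were found. Pvalb (chr15:78191114-78206400, minus strand of GRCm38), the calcium buffer parvalbumin, stood at 110, 148, 123 and 119 CPM (UMIs of a gene per 1000000 UMIs of the summed members). Its counts were low in single nuclei, for 136 members held 1 Pvalb UMI, 40 held 2, 17 held 3 and 8 held more. A Pvalb UMI was found in 0.528%, 0.553%, 1.92% and 1.44% of excitatory nuclei, which should lack the gene, at median depths of 14143, 10581, 12750 and 12791 UMIs.

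The gate was narrow at the Pvalb limit. Without any Pvalb UMI, 588 further nuclei met every other condition, and Pvalb interneurons whose Pvalb transcripts were not caught would fall outside the gate. At the other limits, 28 nuclei failed on Gad1 and Gad2 alone, 38 on Slc17a7, 200 on Lhx6, 5 on Sst and 4 on Vip. Kcnc1 stood at 248 CPM just outside the Pvalb limit, at 498 in members with 1 UMI and at 514 in members with 2 or more. Elfn1, a synaptic adhesion gene of Sst and Vip interneurons, stood at 77.7, 8.09 and 4.07 CPM in the same groups, and Sox6 at 609, 595 and 669 CPM. Reln stood at 264, 41.1 and 22.3 CPM and Adarb2 at 267, 34.1 and 5.26 CPM. For Kcnc1 the mean of members with 1 Pvalb UMI was close to that of members with more. Sox6 was lower with 1 UMI in every library. So was Btbd11, which the rule did not use, at 626, 752, 467 and 811 CPM against 983, 826, 674 and 892. The Adarb2 mean of members with 1 UMI rested on 6M-1, at 114 CPM against 2.79 with 2 or more, and in 6M-2 both Reln (19.4 against 27.9 CPM) and Adarb2 (11.1 against 13.9) were lower with 1 UMI. The nuclei just outside carried the most Elfn1, Reln and Adarb2.

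Of the marker genes that the rule did not use, Kcnc2 was detected in 100% of the members of every library. It encodes a Kv3 channel subunit. Sox6 was detected in 98.2%, 92.9%, 96.7% and 93.2% of the members, and Kcnc1, another Kv3 subunit, in 100%, 97.6%, 96.7% and 95.5%. Erbb4, the neuregulin receptor, was detected in 100%, 100%, 95% and 100%. In excitatory nuclei Sox6 reached 3.80%, 3.18%, 4.10% and 5.25%. The other shares there were higher, at 49.4%, 51.1%, 56.5% and 51.9% for Kcnc2, 51.1%, 40.2%, 41.5% and 36.9% for Kcnc1, and 20.8%, 17.1%, 30% and 27.3% for Erbb4.

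With each nucleus thinned to 5000 UMIs, which left out 0, 3, 2 and 2 members, Syt2 was detected in 36.4%, 35.9%, 51.7% and 42.9%. Syt2 is the fast calcium sensor of basket cell terminals. In excitatory nuclei thinned likewise its share was 1.17%, 2.36%, 2.41% and 1.97%. Kcnc1 thinned was found in 92.7%, 89.7%, 86.2% and 85.7% of members and in 22.3%, 22.4%, 19.2% and 16.3% of excitatory nuclei. Unthinned, Syt2 was found in 50.9%, 50%, 70% and 54.5% of members. Tac1, the tachykinin precursor, was found unthinned in 25.5%, 14.3%, 21.7% and 20.5%.

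Markers of other cell types were counted over whole lists. Of 13 genes of interneurons from the caudal ganglionic eminence, 4, 4, 9 and 6 had a UMI in the members, and their summed level was 25, 22.8, 96.7 and 49.5 CPM. Htr3a, Tac2 and Sncg were at 0 in every library. The list of excitatory neurons, which does not hold the gate's Slc17a7, summed to 531, 528, 505 and 489 CPM. It was led by Cux2 in 3M-1 and 6M-1 and by Camk2a in 3M-2 and 6M-2, with 10, 8, 12 and 10 of its 13 genes seen and Emx1 at 0 in every library. Its UMIs numbered 5 or more in 37, 23, 34 and 17 members, and their part in the comparisons was not tested. The list of Sst interneurons summed to 185, 222, 213 and 119 CPM, led by Grin3a in 3M-1, 3M-2 and 6M-1 and by Crhbp in 6M-2. The list of striatal spiny neurons summed to 1608, 1379, 1001 and 1365 CPM, with 1067, 532, 614 and 596 UMIs from Pde10a alone and none from Drd2 or Isl1.

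Glial lists summed higher in both older libraries than in both younger ones. The oligodendrocyte list stood at 171, 112, 260 and 559 CPM, led by Mbp. The microglia list stood at 63.1, 130, 212 and 256 CPM, led by P2ry12, with 6, 4, 12 and 11 of its 12 genes seen. The astrocyte list stood at 323, 359, 428 and 495 CPM, and 226, 115, 267 and 173 of its UMIs were of the bicarbonate transporter Slc4a4. Malat1 and 2 other nuclear transcripts used as a sign of RNA quality summed to 104711, 95053, 88838 and 89216 CPM, lower in both older libraries. The part of this last sum in the age comparison was not tested.

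How many Pvalb interneurons there were at each age was compared over mice. They made up 23.5% (95% Wilson interval 18.5-29.3), 20.5% (15.5-26.5), 22.1% (17.6-27.5) and 20.8% (15.8-26.7) of the Lhx6-positive GABAergic nuclei. These intervals cover counting error only. The groups overlapped, and the mean share was lower by 0.549 percentage points at 6 months (two-sided exact permutation of the mice, p = 1). With 2 mice against 2 this test cannot give a p below 0.333.

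Their share of all GABAergic nuclei was 7.37% (5.71-9.47), 5.27% (3.92-7.05), 6.04% (4.72-7.69) and 6.74% (5.06-8.92). Per 100 nuclei of the library there were 0.809 (0.622-1.05), 0.480 (0.355-0.648), 0.740 (0.575-0.951) and 0.642 (0.479-0.861) members. Both older libraries lay between the 2 younger ones on each of these measures (difference of 0.0660 points, exact permutation p = 1, and of 0.0466, exact permutation p = 1). A loss or gain of Pvalb interneurons with age was not detectable at this number of mice and nuclei.

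**Figure D1:**
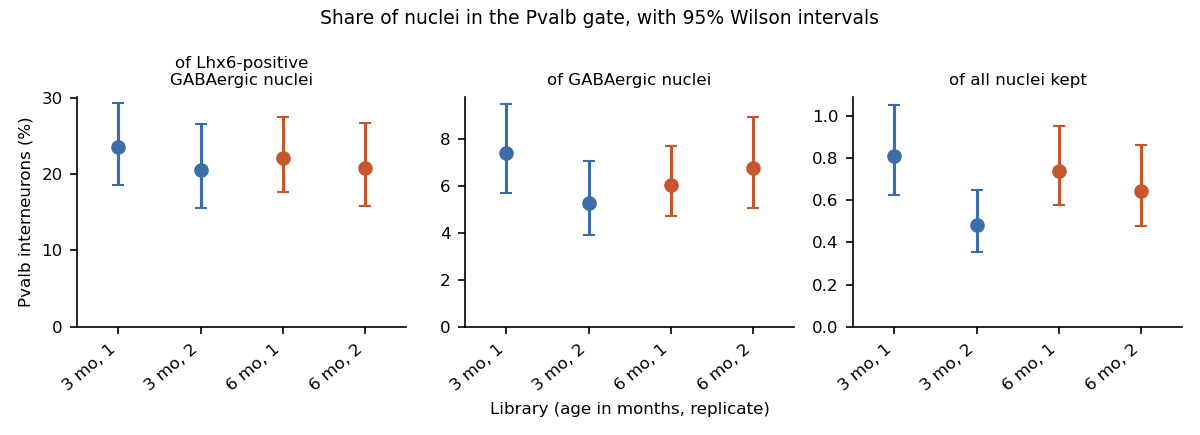
Share of nuclei in the Pvalb gate in each library, as a percentage (vertical axis) of Lhx6-positive GABAergic nuclei, of GABAergic nuclei and of all nuclei kept, with 95% Wilson intervals as bars. The 2 libraries at 6 months (orange) fall inside the range of the 2 at 3 months (blue) in all 3 panels.

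To see what sets Pvalb interneurons apart, their summed UMIs were compared with those of Sst interneurons, the other large class from the medial ganglionic eminence. Kv3 and other potassium channels and several GABA-A receptor subunits were higher in Pvalb interneurons. The NMDA and kainate receptor subunits Grin3a and Grik3 and the calcium channel subunit Cacna2d3 were lower. The Sst gate asked for at least 3 Sst UMIs, no Pvalb and no Vip, and held 7, 28, 53 and 17 nuclei, so 3M-1 contributed little on that side. edgeR's quasi-likelihood test, with the mouse as a block, called 1121 of 7053 genes (15.9%) at a Benjamini-Hochberg adjusted p under 0.05, 558 (7.91%) higher and 563 (7.98%) lower. Calls fell to 736 without 3M-2 and 687 without 6M-1. DESeq2 made 601, and among the genes named below it did not call Ptprz1, Cplx1, Vamp1, Calb1, Nos1, Prdx6, Slc3a2 and Atp5a1 (DESeq2 adjusted p of 0.0594 to 0.299).

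A gene was tested when it reached 21.2 CPM, which is 10 UMIs in a sum of median size, in at least 4 of the 8 sums. A gene below this limit in some sums of one class could pass through the class where it is high, and the filter then favours that direction. Each list is therefore given with the number of its called genes that were above the limit in all 8 sums, and the direction of the others is a description only.

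Of 12 tested potassium channel genes of fast-spiking cells, 9 were higher, 0 lower and 3 not called. Of the 12, 8 were above the limit in all sums, and 5 of these were higher. The median log2 fold change over the 12 was 1.18, against -0.01 over all genes tested. It includes genes whose direction the filter favours. Kcnc1 (chr7:46396497-46438704, plus strand) stood at 527, 566, 440 and 473 CPM in Pvalb and 238, 117, 125 and 130 in Sst interneurons. Every Pvalb value lay above every Sst value, a log2 fold change of 1.77 (SE 0.18, edgeR adjusted p = 1.74e-06). Kcna1, a Kv1 channel of the axon, stood at 220, 219, 171 and 190 against 88.1, 49.6, 49.2 and 96.1 CPM. The groups did not overlap (log2 fold change 1.56, SE 0.20). Kcnip2, an auxiliary subunit of Kv4 channels, differed by 2.38 (SE 0.31) and was below the limit in 2 of the Sst sums.

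Of 8 sodium channel genes, 4 were higher, all 4 above the limit in all sums, and 3 lower, 1 of them above it. Scn9a was higher by a log2 fold change of 2.51 (SE 0.17) and Scn1a, the main sodium channel of interneuron axons, by 0.90 (SE 0.15). Scn3b, a beta subunit, stood at 15.8, 9.13, 14.6 and 19.8 CPM against 61.6, 28.3, 38.4 and 43.2, so it passed only through the Sst sums and had to be lower. Of 11 calcium channel genes, 2 were higher and 5 lower, with 2 and 4 of these above the limit in all sums. The alpha2delta subunits split, Cacna2d2 being higher (0.84, SE 0.16) and Cacna2d3 lower (-3.92, SE 0.22, edgeR adjusted p = 3.84e-09). Cacna2d3 stood at 105, 45.7, 136 and 123 CPM in Pvalb interneurons and at 1638, 1640, 1336 and 1442 in Sst interneurons.

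GABA-A receptor subunits split, with 6 of 10 higher and 2 lower, of which 4 and 2 were above the limit in all sums. Gabrd, the delta subunit of extrasynaptic receptors, stood at 112, 93.6, 80.8 and 97.1 CPM in Pvalb interneurons and at 0, 14.2, 9.23 and 0 in Sst interneurons (log2 fold change 3.45, SE 0.39), and passed through the Pvalb sums. Gabra2 was lower (-2.73, SE 0.17), at 65.7, 25.1, 45.0 and 45.6 against 423, 216, 249 and 308 CPM. Gabra2 was above the limit in all sums, and the classes did not overlap.

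Among 13 glutamate receptor subunits, all above the limit in all sums, 0 were higher and 6 lower, with a median of -0.64. Grin3a, an NMDA receptor subunit, had the largest difference (-3.67, SE 0.20, edgeR adjusted p = 3.39e-09), at 71.0, 70.8, 75.5 and 29.7 CPM against 766, 701, 781 and 836. The kainate receptor subunits Grik3 (-2.33, SE 0.17) and Grik1 (-1.07, SE 0.16) were lower as well.

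Of 5 tested genes of the perineuronal net and its remodelling, 4 were higher and 1 lower, with 1 and 1 above the limit in all sums. Bcan, which encodes brevican, stood at 78.9, 128, 109 and 111 CPM against 17.6, 10.6, 4.61 and 19.2 (log2 fold change 3.41, SE 0.34), and Mme, the protease neprilysin, differed by 1.91 (SE 0.49). Both were below the limit in every Sst sum and passed through the Pvalb sums. Ptprz1, a receptor for net components, was lower by -1.10 (SE 0.28), a call lost without 6M-1 or 6M-2 (edgeR adjusted p = 0.112 and 0.0657). Acan, which encodes the aggrecan core of the net, was too low to be tested, with 11, 9, 9 and 9 UMIs in Pvalb interneurons and 0 in every Sst sum.

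Among 20 genes of fast release and synapses, 5 were higher and 5 lower, with 2 and 3 above the limit in all sums. Syt2 (chr1:134646677-134762593, plus strand) held 84, 48, 143 and 64 UMIs in Pvalb interneurons against 1, 0, 1 and 1 in Sst interneurons, a ratio of levels of 57.7 (95% counting interval 19.6-281). The complexin Cplx1 (1.14, SE 0.27) and the vesicle protein Vamp1 (1.19, SE 0.39) were higher, though Cplx1 was not called without 6M-1 (edgeR adjusted p = 0.173) nor Vamp1 without any 1 of the 4 libraries (0.0651 to 0.168). Syt2 and Vamp1 were below the limit in every Sst sum. Unc13c, a Munc13 priming factor, stood at 9.20, 0, 14.6 and 3.96 CPM against 88.1, 241, 231 and 255, so it passed only through the Sst sums and had to be lower.

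Of 13 calcium buffers, neuropeptides and other interneuron markers, 6 were tested and 0 of them were above the limit in all sums, so no count of directions is given. Tac1 had 21, 15, 20 and 13 UMIs against 0, 0, 3 and 3 and passed through the Pvalb sums. Reln (log2 fold change -3.85, SE 0.30) and the calcium buffer Calb1 (-1.83, SE 0.39) were above the limit in 3 of 4 Pvalb sums, and Npy (-3.64, SE 0.37) and Nos1 (-3.01, SE 0.50) in 1. Of 10 transcription factors of the lineage, Mef2c (1.38, SE 0.21), Esrrg (1.52, SE 0.19) and Ppargc1a were higher and Maf lower (-0.68, SE 0.14), all 4 above the limit in all sums. Sox6 and Satb1, shared by both classes, had log2 fold changes of -0.39 (SE 0.15, edgeR adjusted p = 0.093) and -0.41 (SE 0.15, edgeR adjusted p = 0.079).

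Of 18 genes of Erbb4, trophic and adhesion signalling, 8 were higher and 2 lower, with 7 and 1 above the limit in all sums. Erbb4 (chr1:68032186-69108059, minus strand) stood at 8756, 8892, 8508 and 8891 CPM in Pvalb interneurons and at 379, 599, 2405 and 1975 in Sst interneurons (log2 fold change 2.96, SE 0.32, edgeR adjusted p = 3.32e-06). The Pvalb values were almost alike in the 4 mice, and the Sst values were lower in both younger mice than in both older ones. The neurotrophin receptor Ntrk3 was higher too (2.19, SE 0.17).

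Glutathione and antioxidant genes gave 3 higher, 1 of them above the limit in all sums, and 0 lower of 13. Gss, glutathione synthetase, stood at 59.2, 112, 103 and 99.1 CPM against 8.81, 39.0, 40 and 33.6 (log2 fold change 1.49, SE 0.24), below the limit in 1 Sst sum. The other 2 were the peroxiredoxin Prdx6 (1.70, SE 0.45; edgeR adjusted p = 0.113 without 3M-2) and the transporter subunit Slc3a2 (0.109 without 6M-1). Of 20 oxidative phosphorylation genes 1 was called, Atp5a1 (0.53, SE 0.17, edgeR adjusted p = 0.0445, and 0.0528 without the mouse as a block), and of 6 stress and cell death genes none, at medians of 0.38 and -0.14.

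**Figure D2:**
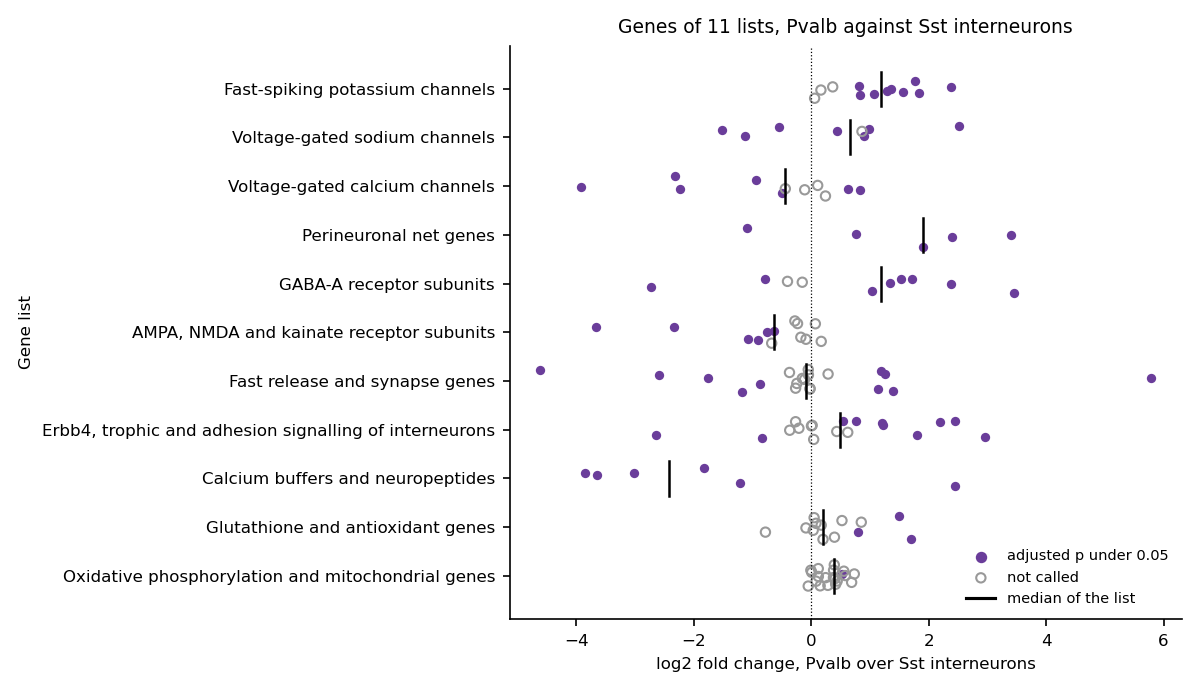
Log2 fold change of Pvalb over Sst interneurons (horizontal axis) for the tested genes of 11 lists, 1 point a gene, filled where the edgeR adjusted p was under 0.05, with a bar at the median of the list. Potassium channels lie to the right with a median of 1.18, and glutamate receptor subunits lie to the left with a median of -0.64. Of the 12 potassium channel genes, 8 were above the limit of the filter in all sums.

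Over all genes, those with the largest fitted differences from Sst interneurons included Adamtsl5, which encodes a protein of the ADAMTS-like matrix family. It held 54, 30, 46 and 32 UMIs in Pvalb interneurons and 0 in each Sst sum, at least 27.6-fold higher against a floor of 3 UMIs over the group. Cemip, which encodes a hyaluronan-binding protein, stood at 571, 582, 360 and 398 CPM against 8.81, 3.54, 29.2 and 38.4 (log2 fold change 4.24, SE 0.31). Mybpc1 (4.0, SE 0.45) and Lama3, a laminin chain, were also among the 12 highest. In the other direction Man1a, a mannosidase of the Golgi (-5.09, SE 0.37), and Elfn1 (-4.72, SE 0.32), a member of the Sst interneuron list, had the lowest log2 fold changes among the named genes. Genes at or near 0 in one class, such as Adamtsl5 and Elfn1, passed only through the other.

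Vip interneurons arise from the caudal ganglionic eminence and were compared in the same way. The Vip gate (at least 2 Vip UMIs, no Lhx6, no Pvalb) held 77, 79, 78 and 69 nuclei. edgeR called 2526 of 7905 genes (32.0%), 1261 (16.0%) higher and 1265 (16.0%) lower in Pvalb interneurons, and DESeq2 1375. Median depth was 7322, 6070, 7028.5 and 7044 UMIs a Vip nucleus, below that of the members in each library.

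Here the limit was 17.4 CPM. Of 10 lineage transcription factors 9 were higher, 5 of them above the limit in all sums. Sox6 stood at 613, 683, 611 and 578 CPM against 0, 41.4, 20.7 and 14.7 (log2 fold change 5.01, SE 0.24), below the limit in 2 Vip sums. Satb1 was also higher (3.10, SE 0.18), and Dlx1, a factor of all forebrain interneurons, was lower (-2.08, SE 0.24). Of 12 potassium channel genes, 11 were higher, 9 of them above the limit in all sums, and 0 lower. Kcnc1 was higher by 1.48 (SE 0.12) and Kcnc2 by 2.20 (SE 0.11).

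Of the caudal eminence list 9 of 13 genes were tested here and 0 in the comparison with Sst interneurons, so the 9 entered through the Vip sums, where they are high, and had to be lower in Pvalb interneurons. Adarb2, an RNA-editing family member, stood at 6.57, 2.28, 60.9 and 11.9 CPM against 14820, 11101, 14240 and 13234 (log2 fold change -9.34, SE 0.26). The level in 6M-1 was above that in the other 3 libraries. Cacna2d1 was lower (-2.81, SE 0.19), and Cacna2d2 differed by 3.91 (SE 0.18), below the limit in 2 Vip sums. Oprd1, the delta opioid receptor, was at least 96.2-fold higher against a floor of 3 UMIs over the group. It held 0 UMIs in the Vip sums, so it passed only through the Pvalb sums and had to be higher. Erbb4 was not called between these classes (log2 fold change 0.16, SE 0.09, edgeR adjusted p = 0.181). It stood at 8756, 8892, 8508 and 8891 CPM in Pvalb and at 8135, 7437, 7209 and 7307 in Vip interneurons, a small difference without overlap.

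**Figure D3:**
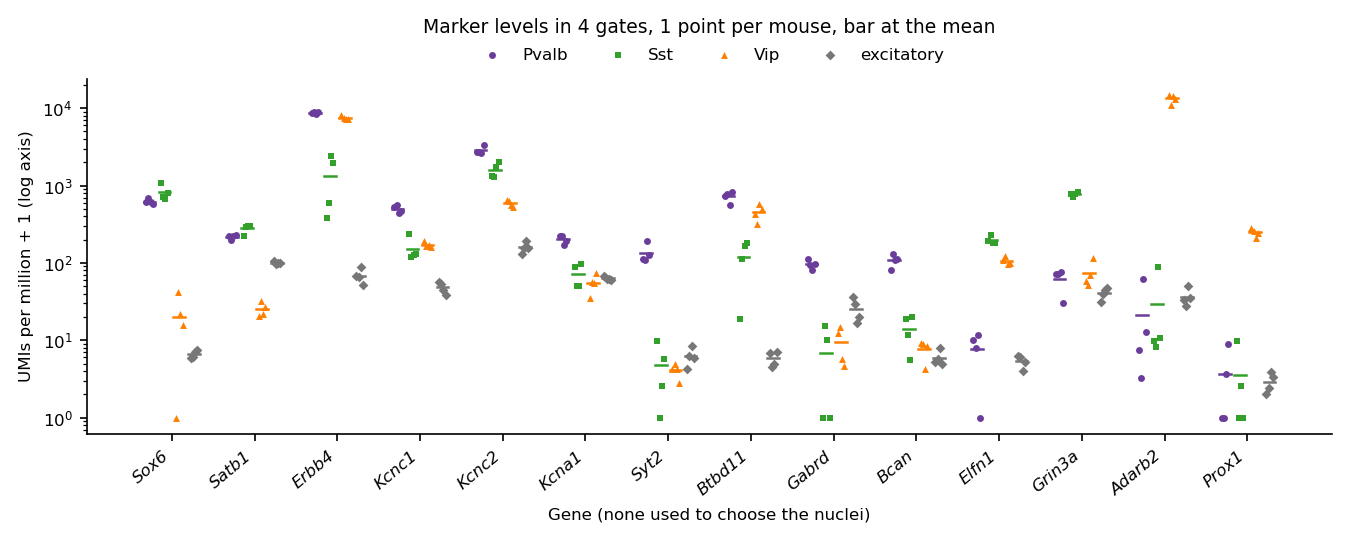
Level of 14 genes not used by any gate, in CPM plus 1 on a log axis, in the Pvalb, Sst, Vip and excitatory gates, with 1 point a mouse and a bar at the mean of 4 mice. Kcnc1, Kcna1, Syt2, Gabrd and Bcan are highest in Pvalb interneurons, while Erbb4 is also high in Vip interneurons and Sox6 in Sst interneurons.

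Because CaMKII-Cre acts in excitatory neurons, Gclc and its pathway were compared between the members and 7386 excitatory nuclei (at least 3 Slc17a7 UMIs, no Gad1 or Gad2). Here class and Cre targeting cannot be told apart. Gclc (chr9:77754535-77794485, plus strand) stood at 46.0, 52.5, 41.1 and 61.4 CPM in Pvalb interneurons and at 40.7, 33.6, 34.9 and 35.4 in excitatory neurons. Each Pvalb value was higher than its own excitatory one, and the difference did not pass the test (log2 fold change 0.23, SE 0.16, edgeR adjusted p = 0.286). Which exons were floxed is not given in the sources used here, and reads counted toward the 3′ end outside them would not show the deletion.

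Of all genes in this comparison 5885 of 16110 (36.5%) were called, 2415 (15.0%) higher and 3470 (21.5%) lower in Pvalb interneurons, with a median log2 fold change of -0.07. Glutathione and antioxidant genes gave 9 higher and 2 lower of 29, of which 17 passed the filter in the members alone. Gss was higher by 1.85 (SE 0.14) in all 4 mice, at 59.2, 112, 103 and 99.1 CPM against 14.1, 23.1, 27.3 and 24.6. The lower ones were Gstp1 (-2.44, SE 0.83), a glutathione transferase, and Txnrd2 (-1.29, SE 0.36), the mitochondrial thioredoxin reductase. Neither of these passed in the members alone. The first was not called without 6M-2 (edgeR adjusted p = 0.094) nor the other without 3M-1 (0.0562).

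Oxidative phosphorylation and mitochondrial genes gave 14 higher and 0 lower of 24, with a median of 0.53. Cox5a, a subunit of complex IV, stood at 64.4, 103, 88.7 and 73.3 CPM against 30.2, 34.9, 38.5 and 33.5 (log2 fold change 1.03, SE 0.14). Atp5a1, of the ATP synthase, was higher by 0.83 (SE 0.10). Ppargc1a, a coactivator of mitochondrial genes, stood at 296, 288, 317 and 327 CPM against 65.5, 73.1, 93.3 and 90.1, with no overlap.

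Of 17 immediate early genes only Junb (log2 fold change -1.26, SE 0.23), Nr4a1 (-2.22, SE 0.17) and Homer1 (-2.32, SE 0.11) passed the filter on low counts in the sums of Pvalb interneurons alone. The others entered through the excitatory sums, where a gene that passes for being high there has to be lower in the members, so their count is not given. Arc had 1, 2, 3 and 0 UMIs in the members, and its level in excitatory neurons was 33.5, 31.3, 21.8 and 32.3 CPM (log2 fold change -3.79, SE 0.38). Bdnf, a neurotrophin made by excitatory neurons, differed by -4.18 (SE 0.37). Stress, p53 and cell death genes gave 6 higher and 2 lower of 21, of which 9 passed the filter in the members alone. Gsdme, a gasdermin, stood at 344, 468, 377 and 382 CPM against 103, 130, 149 and 142 (log2 fold change 1.38, SE 0.10). Sesn2, a stress-induced sestrin, was higher by 2.07 (SE 0.43) on 6, 2, 14 and 5 UMIs, and Asns, asparagine synthetase, by 0.93 (SE 0.20).

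What changed in Pvalb interneurons between 3 and 6 months was the last question. edgeR called 7 of 8344 genes (0.0839%), 5 higher (0.0599%) and 2 lower (0.024%) at 6 months, and 433 had an unadjusted p under 0.05. DESeq2 called 2, Lrmda and Sorcs1. The CPM of the 2 ages did not overlap for 2741 genes (32.8%). Leaving out 3M-1, 3M-2, 6M-1 or 6M-2 gave 38, 127, 16 and 11 calls, each fit with 1 library at one age that was assumed to vary like the 2 of the other age. The labels also give the replicate number as the batch. Differences between replicates 1 and 2 were not correlated between the ages (Pearson r of -0.05 across 7113 genes, which are not independent replicates). Counting noise in sums of so few nuclei can hide a pairing, so this does not decide it. A fit with the replicate number as a block called 6.

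None of the lists of neuronal, antioxidant, mitochondrial or stress genes held a called gene. Potassium channels had 0 of 12 called with a median log2 difference of -0.08, GABA-A receptor subunits 0 of 11 with 0.05, and glutathione and antioxidant genes 0 of 17 with 0.05. Oxidative phosphorylation genes had 0 of 22 called with a median of 0.14 and stress genes 0 of 9 with -0.08. Kcnc1 differed by -0.25 (SE 0.17), Erbb4 by -0.01 (SE 0.09), Syt2 by 0.55 (SE 0.24), Gss by 0.32 (SE 0.29) and Gclc by 0.05 (SE 0.33), each with an edgeR adjusted p of at least 0.931.

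The 5 genes higher at 6 months were Lrmda, Pde4b, Ptgds, Neat1 and Inpp5d. Pde4b is a cyclic AMP phosphodiesterase, Ptgds the prostaglandin D synthase of oligodendrocytes and meninges, Neat1 a nuclear RNA of paraspeckles and Inpp5d a phosphatase of microglia. Lrmda (chr14:22019712-23056085, plus strand) stood at 18.4, 22.8, 70.2 and 172 CPM (log2 fold change 2.54, SE 0.41, edgeR adjusted p = 0.0113). Pde4b stood at 69.7, 34.3, 122 and 295 CPM (1.89, SE 0.35, edgeR adjusted p = 0.0362). Both older values exceeded both younger ones, with 6M-2 the highest.

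Ptgds stood at 15.8, 25.1, 42.4 and 349 CPM (3.25, SE 0.64, edgeR adjusted p = 0.0483) and Neat1 at 5.26, 13.7, 33.1 and 95.1 CPM (2.83, SE 0.55, edgeR adjusted p = 0.0483). Inpp5d held 0, 0, 15 and 17 UMIs, at least 10.1-fold higher at 6 months against a floor of 3 UMIs over the group. It was at 0 in both younger sums and passed the filter only through the older ones, so this fold is a description only. Neat1 held 4 and 6 UMIs in the younger sums and 25 and 48 in the older ones, and likewise passed only through the older ones. The filter thus favoured the higher direction for Inpp5d and Neat1, and their direction is a description only. With the replicate block, Pde4b and Inpp5d were no longer called (edgeR adjusted p = 0.0715 for each). Without 6M-2, Ptgds fell to a log2 fold change of 1.12 (edgeR adjusted p = 1) and none of these 5 genes was called.

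Glial UMIs moved with these genes. All Inpp5d UMIs lay in 3 and 2 nuclei of 6M-1 and 6M-2, each with at least 5 glial UMIs, in a sum that did not count Inpp5d itself. Of 176 Ptgds UMIs in 6M-2, 97 and 43 were in 2 nuclei. Of 149 Pde4b UMIs there, 139 were in nuclei with glial UMIs. With doublet calls and these nuclei left out, a choice made after seeing the data that removed 4, 3, 11 and 9 members, Pde4b stood at 31.5, 17.5, 45.3 and 25.5 CPM, Ptgds at 11.4, 20, 8.72 and 33.2 and Inpp5d at 0 in every library. Lrmda stood at 15.7, 24.9, 22.7 and 84.3 CPM. The groups then overlapped for Pde4b, Ptgds and Lrmda, and edgeR called 0 genes, with 341 at an unadjusted p under 0.05.

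**Figure D4:**
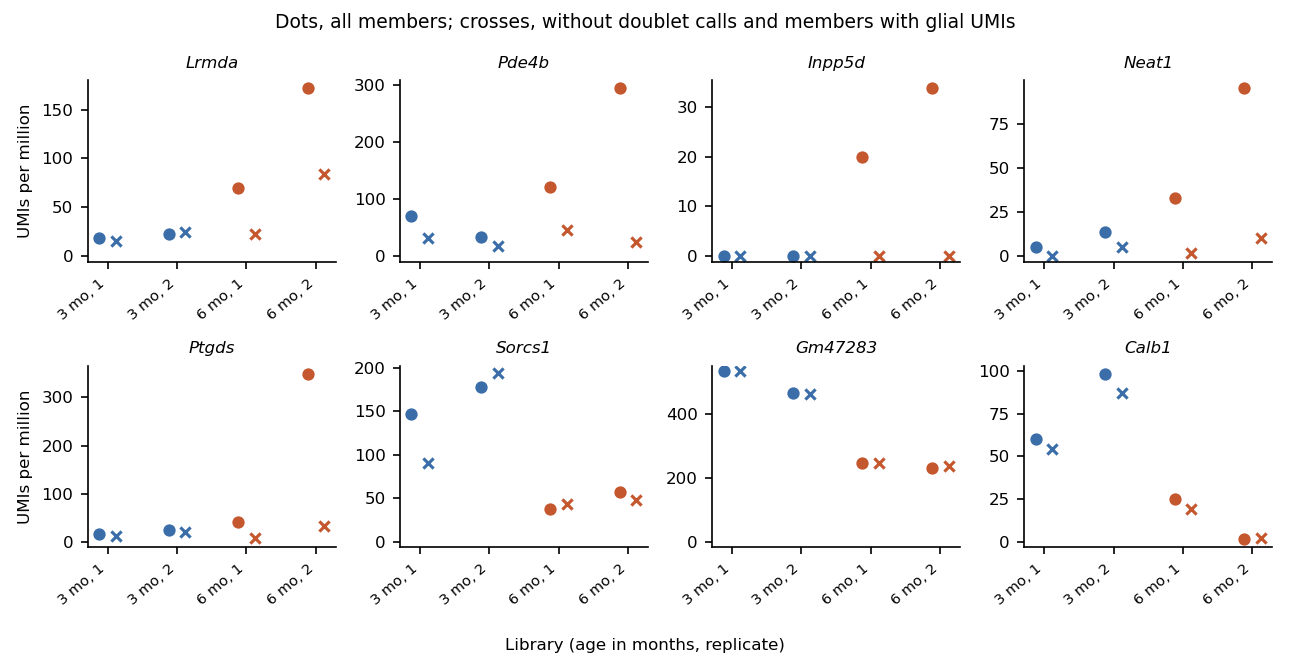
Level in CPM (vertical axis, linear) of the 7 genes called between ages and of Calb1, in each library, with all members (dots) and without doublet calls and members with glial UMIs (crosses). Pde4b, Inpp5d, Neat1 and Ptgds drop toward the level of the younger libraries in both older ones, whereas Gm47283 keeps its 2 levels.

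The 2 genes lower at 6 months were Sorcs1 and Gm47283. Sorcs1 (chr19:50143299-50678646, minus strand), a sorting receptor of neurons, stood at 147, 178, 38.4 and 57.5 CPM (log2 fold change -1.77, SE 0.27, edgeR adjusted p = 0.0113). It was uneven between nuclei: in 3M-2, 45 and 22 of 78 UMIs were in 2 nuclei, in 3M-1, 49 of 112 were in nuclei with glial UMIs, and members with at least 3 Sorcs1 UMIs numbered 8, 2, 1 and 4. Without doublets and nuclei with glial UMIs it stood at 90.2, 195, 43.6 and 48.5 CPM (edgeR adjusted p = 0.286). The groups stayed apart, and the call was lost. It was also lost without 6M-1 (edgeR adjusted p = 0.0529).

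Gm47283 was spread over nearly all nuclei. It was seen in 55, 41, 55 and 40 members, at 535, 466, 246 and 232 CPM (log2 fold change -1.06, SE 0.18, edgeR adjusted p = 0.0178), and at 534, 461, 246 and 238 CPM without doublets and nuclei with glial UMIs (edgeR adjusted p = 0.181). Without 6M-2 it was not called (edgeR adjusted p = 0.0737). GENCODE M21 places this gene on the Y chromosome (chrY:90784738-90816464, plus strand). Xist held 937, 527, 876 and 661 UMIs in the members, and Ddx3y, Uty, Kdm5d and Eif2s3y together held 1, 0, 0 and 0. The level of Gm47283 was 458, 361, 246 and 221 CPM in Sst, 440, 426, 251 and 253 in Vip and 497, 399, 256 and 256 in excitatory nuclei. In each of these classes too, both older values lay below both younger ones.

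**Figure D5:**
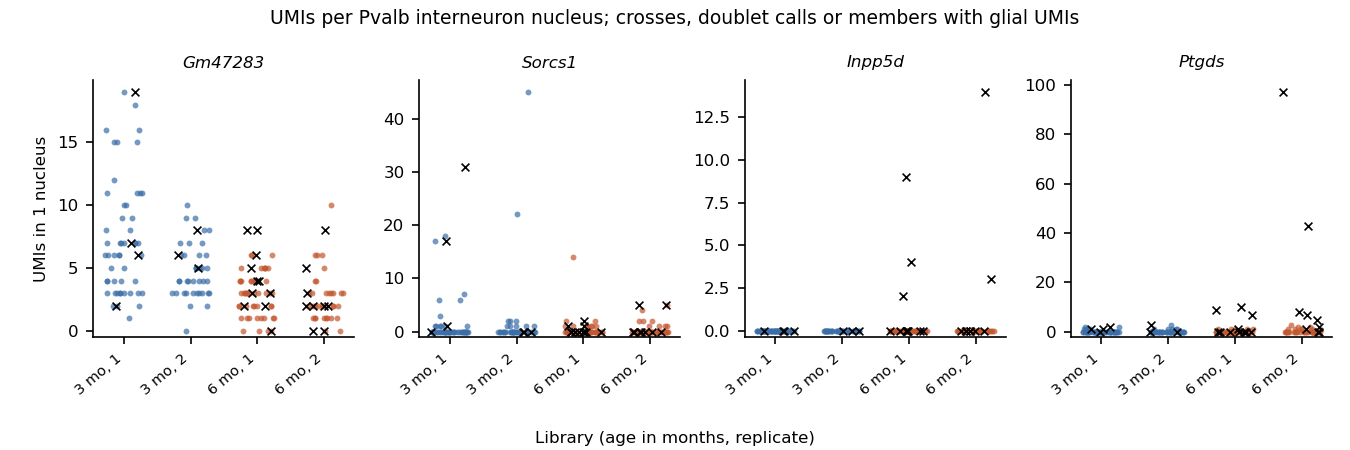
UMIs of 4 genes in each Pvalb interneuron nucleus (vertical axis, 1 point a nucleus) by library, with crosses for doublet calls and members with glial UMIs. Gm47283 is spread over most nuclei of each library, Sorcs1 has a few high nuclei, and the high Inpp5d and Ptgds counts are crosses.

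Calb1 (chr4:15881264-15908064, plus strand), a calcium buffer of some interneurons, stood at 60.5, 98.2, 25.2 and 1.98 CPM and did not pass the test (log2 fold change -2.29, SE 0.48, edgeR adjusted p = 0.0831). It was called with no filter on low counts (edgeR adjusted p = 1.78e-05) and without nuclei with glial UMIs (0.0423), and DESeq2 did not call it (1). Nor was it called without doublets (edgeR adjusted p = 0.308) or with the replicate block (0.123). Without doublets and nuclei with glial UMIs together the call was also missing (edgeR adjusted p = 0.220). Its log2 fold change ran from -5.14 without 6M-1 to -1.60 without 6M-2. It was seen in 14, 8, 9 and 1 members. Thinned to 5000 UMIs, the share of nuclei with a Calb1 UMI was 18.2%, 15.4%, 6.90% and 2.38%, and it was 7.42%, 8.80%, 7.91% and 7.14% in excitatory nuclei. Both older libraries were below both younger ones (exact two-sided permutation p = 0.333, the smallest possible, Benjamini-Hochberg adjusted p = 1).

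Subtype genes of basket and chandelier cells were compared in the same thinned nuclei. Of 16 genes, 5 had shares that did not overlap between ages (Tac1, Vipr2, Calb1, Akr1c18 and Ntf3), against 33.7% of all genes measured this way, and every adjusted p was 1. Unthinned, 3 did, against 27.1% of all genes. Eya4, a transcriptional coactivator, was found in 47.3%, 48.7%, 55.2% and 45.2% of thinned members against 0.481%, 0.639%, 1.21% and 0.900% of excitatory nuclei. Vipr2, a marker of chandelier cells, was found in 0, 0, 1 and 1 thinned member nuclei.

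Whether an age difference differed between Pvalb and Sst interneurons was tested with an interaction term. edgeR called 3 of 8322 genes (0.036%), 1 with a larger (0.012%) and 2 with a smaller (0.024%) difference in Pvalb interneurons, and 313 had an unadjusted p under 0.05. DESeq2 called 0, with 42 at an unadjusted p under 0.05. Without 3M-1, 3M-2, 6M-1 or 6M-2 the test called 25, 64, 8 and 7 genes. The 3 genes were Pde4b, Erbb4 and 4930445B16Rik, and for Erbb4 the Pvalb values differed by -0.01 on the log2 scale between ages while the Sst values did not overlap.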

How the data were processed

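The authors deposited raw UMI counts per gene and nucleus, made with Cell Ranger 7.0.0 per the file headers from 10x 3′ libraries, with mm10 named in the submitters' processing notes. They analysed the nuclei with Seurat, and their limits of 7000 detected genes and 1% mitochondrial UMIs were kept. Members and gene lists were chosen with earlier results of these data known.

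Counts were summed per mouse and class and compared with edgeR 4.0.16 in R 4.3.3 (TMM, filterByExpr, quasi-likelihood test, Benjamini-Hochberg threshold 0.05). The fits were tried beforehand on simulated counts. These were drawn per sum and not per nucleus, so they do not cover UMIs gathered in a few nuclei. The 7 genes of the gates were left out of the tests and kept in the totals. Class comparisons had the mouse as a block. Shares were compared with exact permutation tests (scipy 1.17.1). In the age tests p-values measure the spread between libraries labelled as replicates. In the class comparisons and the interaction they measure how the class difference varies between mice.

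Named besides the lists were, for age, the 10 genes each way with the smallest p, no overlap between ages and a mean of at least 20 CPM. For classes they were the 12 called genes each way with the largest log2 fold change, the same sign in 4 of 4 mice and at least 20 CPM. Coordinates are from GENCODE M21 (GRCm38). Alternatives were DESeq2 1.42.0 and its size factors, no filter, a Pvalb limit of 2 UMIs, Scrublet doublets (scanpy 1.11.5) left out, and each library left out. A further one was the replicate block for age, and no mouse block for the class comparisons and the interaction. Inpp5d and Calb1 were named from the lists.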

Additional observations from a re-analysis of the deposited data

Results flagged for a closer look

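The age difference of 3 genes differed between Pvalb and Sst interneurons by the interaction term of edgeR. In 3M-1 the Sst sum rested on 7 nuclei. Pde4b differed by 2.83 on the log2 scale (SE 0.42, edgeR adjusted p = 0.003). It stood at 69.7, 34.3, 122 and 295 CPM in Pvalb and at 687, 223, 232 and 202 CPM in Sst interneurons, and of its 149 UMIs in Pvalb interneurons of 6M-2, 139 were in nuclei with glial UMIs.

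Erbb4 differed by -2.17 on the log2 scale (SE 0.27, edgeR adjusted p = 0.000175). Its level was 8756, 8892, 8508 and 8891 CPM in Pvalb interneurons, and in Sst interneurons it was 379, 599, 2405 and 1975 CPM. The long noncoding RNA 4930445B16Rik differed by -2.63 (SE 0.49, edgeR adjusted p = 0.044), at 202, 450, 338 and 343 CPM in Pvalb interneurons and 8.81, 28.3, 114 and 149 CPM in Sst interneurons. In both cases the Sst values were the ones that separated by age. DESeq2 called none of the 3 (adjusted p of 0.167 for Pde4b, 0.128 for Erbb4 and 1 for 4930445B16Rik). Without the mouse as a block edgeR called only Erbb4 (adjusted p of 0.803 for Pde4b and 0.963 for 4930445B16Rik).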

How the results depend on the processing

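Between ages the number of calls moved with the setting. From 7 it became 37 with no filter on low counts, 2 with DESeq2, 1 without doublets and 0 (194 at an unadjusted p under 0.05) with a Pvalb limit of 2 UMIs. Without nuclei with glial UMIs, a setting chosen after seeing the data, it became 2 (Gm47283, 1 of the 7, and Calb1, which was not), and without these and doublets 0 (341 unadjusted). Leaving out a library gave 11 to 127 calls. Against Sst interneurons 1121 calls became 601 with DESeq2, 747 with the limit of 2 UMIs and 687 to 1228 with a library left out. Against Vip interneurons DESeq2 made 1375 calls, and against excitatory neurons the limit of 2 UMIs left 3825. There St18 turned to -0.15 without doublets and to -0.37 with the limit, and Uqcrb to -0.038 with the limit. No other gene followed here, those called in the lists or named by size of change, turned its direction in these class comparisons, and list genes that were not called were not followed.

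The interaction called 8 genes with no filter, 0 (42 unadjusted) with DESeq2 and 7 to 64 with a library left out. Differences in share stayed within the spread between mice. Of Lhx6-positive nuclei the difference turned to 0.0515 points when thinned and 0.128 with the limit of 2 UMIs, and of GABAergic nuclei to -0.305 when thinned. With a library left out they ran from -2.06 to 0.960, from -0.985 to 1.12 and, per 100 nuclei, from -0.118 to 0.211. Subtype genes without overlap were 3 of 16 unthinned and 8 to 10 of 16 with a library left out, where 64.3% to 68.0% of all genes did not overlap.

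With the replicate block the age test called 6 genes, 5 of them among the 7, and the shares differed by -0.549, 0.0660 and 0.0466. Without the mouse as a block, 1000 genes were called against Sst interneurons, 2104 against Vip interneurons, 4965 against excitatory neurons and 1 by the interaction. Whether the replicate numbers pair the samples could not be decided from sums of so few nuclei.

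The number of nuclei and of mice limits these comparisons. Most members rest on 1 Pvalb UMI, and a gene below about 20 CPM rests on a handful of UMIs in each library.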

Other observations

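Another neuronal gene with lower values at 6 months did not pass the test. Col25a1, a membrane collagen of neurons, differed by -1.80 on the log2 scale (SE 0.39, edgeR adjusted p = 0.109), and by -0.83 without 3M-2. In that library 55 of its 102 UMIs were in 1 nucleus, which also held 45 of the 78 Sorcs1 UMIs. Among genes named for higher values at 6 months, Zbtb20 (edgeR adjusted p = 0.0718), Gm1992 (0.121) and Gm45904 (0.412) were not called. Without doublets and nuclei with glial UMIs Zbtb20 stood at 90.2, 47.4, 155 and 133 CPM and Gm1992 at 243, 362, 443 and 623. Gm45904 stood at 180, 207, 356 and 314 CPM. The ages of these genes stayed apart, those of Dock10 and Prr5l overlapped, and none was called.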
